A study of Caenorhabditis elegans with 5 samples.

Results

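The regions described here are 4710 windows of 1 kb that combined a high tier of wild-type H3K9me3 with nascent RNA reads that fit more than 1 place in the C. elegans genome. They were chosen from 99764 windows (4.72% of them) by 3 conditions. A window had to lie in tiers 1 to 4 of a score for wild-type H3K9me3, had to carry no mark of H3K9me3 loss in an HMT mutant and no mark as a native nuclear RNAi target or as misannotated, and had to hold a fraction of a read in the WT library. The score is not defined in the sources used here. Tier 4, the broadest of these tiers with 20582 windows against 4040 in tier 3, supplied 93.2% of the windows chosen. In these files a read that matched several places was divided evenly among them, so a value that is not a whole multiple of 1 read shows that at least 1 of the reads in that window was shared. The high-tier windows without marks numbered 20752 in all. Of the others, 8460 held whole WT reads (called whole-read windows below) and 7582 had no WT read.

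Pre-mRNA-seq was performed once for each of 5 genotypes, all young adults raised at 19 °C on E. coli OP50. They were N2 wild type (WT), a single mutant of set-32 (allele ok1457), a single mutant of hrde-1 (tm1200), a double mutant of met-2 (n4256) and set-25 (ok5021), and a triple mutant with those alleles of all 3 HMT genes. The RNA was taken from whole-animal chromatin precipitated through its elongating RNA polymerase II, so fewer cells of a type and less RNA per cell cannot be told apart. With 1 library per genotype no difference could be set against replicates, so no test was run across windows and p-values are left out.

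Methylation of histone H3 at lysine 9 marks heterochromatin, which in C. elegans is concentrated on chromosome arms and over repeated DNA such as transposons and tandem arrays. Among the histone methyltransferases (HMTs) that contribute to this mark are MET-2, SET-25 and SET-32, and the Argonaute protein HRDE-1 guides nuclear RNAi to its targets in the germline. The study's authors list native targets silenced at the level of transcription by germline nuclear RNAi as GRTS, and those that owe their H3K9me3 to it as GRH. A value in a repeated sequence stands for the family of copies as much as for the window in which it is listed. No genome or annotation of the ce6 build was used, so windows are given by ce6 position, counted from 1, without a gene name or a sequence.

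The recovered depth ranged from 323825 reads in the triple mutant to 1096410 in WT. The value of 1 read was 0.912 RPKM for WT, 1.80 RPKM for set-32, 1.47 RPKM for hrde-1, 1.49 RPKM for the double mutant and 3.09 RPKM for the triple mutant. By their codes, the libraries of set-32 and the triple mutant formed a second library set, and 27.8% and 37.3% of their signal lay in rRNA genes, against 4.64% to 8.90% in the others. Against WT, the median log2 difference of windows in no list that averaged at least 5 RPKM was -0.55 for set-32, -0.12 for hrde-1, -0.00 for the double mutant and -0.86 for the triple mutant, and it was -0.28 for the triple mutant against set-32. Differences are to be read against these shifts, and rescaled values are given where they change the picture. The pair of windows at I 9519001 to 9521000 was taken as the place of the set-32 deletion, without an annotation of this build to check it. It had 8.21 and 12.8 RPKM in WT. There the library labelled set-32 had 1.80 and 3.59 RPKM and the library labelled as the triple mutant had 3.09 and 3.09 RPKM, a difference that rests on few reads.

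The tier label was compared with the loss marks in the same table. A mark of H3K9me3 loss was present in 99.0% of tier 1 windows, 98.8% of tier 2, 77.5% of tier 3 and 3.33% of tier 4, and in fewer than 3 windows of each of tiers 5 to 7. Tier 8 departed from this order with 17.1%, and 97.5% of its windows were marked misannotated. Within tiers 1 to 4 the share with a loss mark fell with the tier number, and the chosen windows were nearly all from the broadest of the 4. Tier 4 supplied 4388 windows (93.2%), tier 3 supplied 314, tier 2 supplied 7 and tier 1 supplied 1. The 8 windows of tiers 1 and 2 had at most 3.42 RPKM in any library. Windows of tier 5 that met every other condition numbered 3014, with a WT median of 1.80 RPKM against 2.15 RPKM in tier 4 and 3.33 RPKM in tier 3. At the limit on fractions, the nearest window inside lay 0.0209 read from a whole number (I 9546001, WT value 13.7 RPKM), and the nearest outside lay just under 0.02 read from one (III 978001, WT value 3.63 RPKM).

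Shared reads were found at the same windows in the libraries that had not been used to choose them. Of values above 0, those with a fraction of a read made up 84.8% in set-32, 86.7% in hrde-1, 85.0% in the double mutant and 80.9% in the triple mutant. In whole-read windows of the same tiers the shares were 6.90% to 7.81%, and in all windows 19.4% to 21.2%. All 4 mutants held fractions in 2288 of the windows (48.6%), against 101 of the whole-read windows (1.19%), while 335 windows (7.11%) held a fraction in WT alone.

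**Figure D1:**
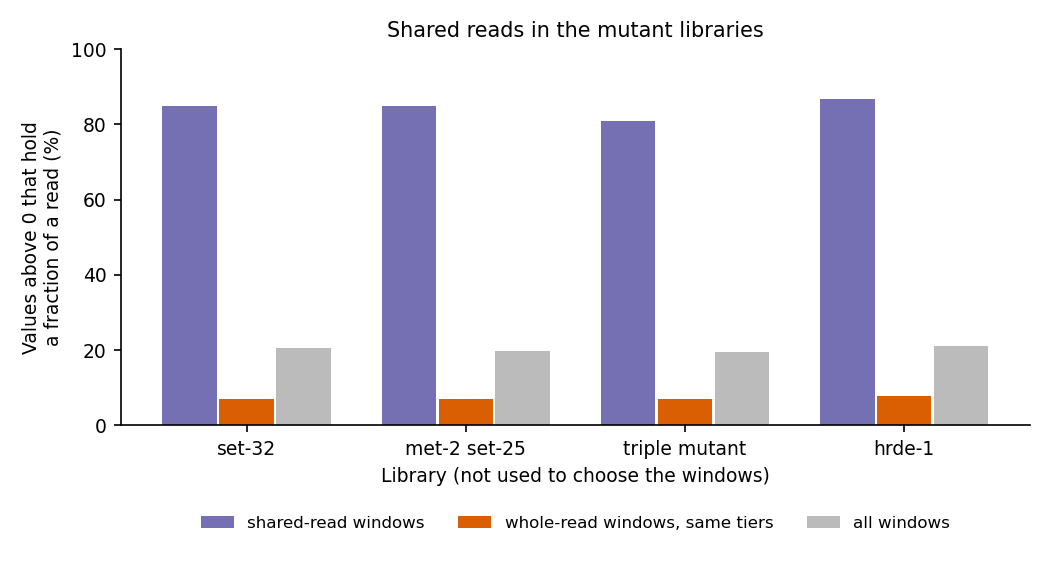
Percentage of values above 0 that are not whole multiples of 1 read within 0.02 read, in each of the 4 mutant libraries, for the 4710 shared-read windows, the 8460 whole-read windows of the same tiers and all 99764 windows. The shared-read windows stand at 80.9% to 86.7% in every mutant library, and the whole-read windows at 6.90% to 7.81%.

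The fractions themselves were of several sizes. A fraction of 0.5 read, as left by reads with a pair of matching places, was present in 688 windows (14.6%) in WT. Fractions of 1/3 or 2/3 read were present in 508 windows and of 1/4 or 3/4 read in 391. In 1266 windows (26.9%) the WT value was below a single read, and in 726 it was below 1 read in all 5 libraries. The other windows held mixtures from which no copy number was read.

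The windows followed the arms of the chromosomes. The outer 30% on either side of each chromosome held 79.1% of them, close to the 80.0% of whole-read windows and above the 60.0% of all windows. Chromosome V had the largest number (1025) and chromosome III the smallest (632), where the arms held 72.2%. Windows marked misannotated lay next to 112 of them (2.38%, against 0.355% of whole-read windows). Windows with a loss mark lay next to 580 (12.3%, against 8.52%), and 85 lay within 2 kb of a GRTS or GRH window (1.80%, against 0.816%). The windows formed 3237 runs, of which 2298 were single windows and 50 were at least 5 kb long. These 50 runs held 316 windows.

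Most shared-read windows had low levels of pre-mRNA in every genotype. The median was 2.18 RPKM for WT, 1.80 RPKM for set-32, 2.16 RPKM for hrde-1, 2.53 RPKM for the double mutant and 1.54 RPKM for the triple mutant, and the quartiles of the WT values were 0.76 and 6.26 RPKM. These medians lie below the level of 3 reads, which is 2.74 RPKM for WT and 9.26 RPKM for the triple mutant. A few windows held much of the signal, since the 47 highest in WT made up 32.4% of the summed WT level. A level of at least 20 RPKM was reached in any library by 627 windows and in all 5 by 168. Among the 627, the highest of the 5 values belonged to set-32 in 15.0% and to the triple mutant in 11.0%, compared with 10.7% and 8.87% of whole-read windows and 6.16% and 5.33% of all windows that reached 20 RPKM.

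The highest shared-read windows on the X chromosome lay in 5 blocks, 19 windows that averaged at least 200 RPKM over the libraries. The highest of all was X 5102001 to 5103000, a tier 3 window with WT at 921 RPKM, set-32 at 1534 RPKM, hrde-1 at 1311 RPKM, the double mutant at 678 RPKM and the triple mutant at 732 RPKM. The double mutant was below hrde-1 in 19 of the 19 windows, and the triple mutant was below set-32 in all 19. Windows of a block can hold parts of the same reads, so these 19 are not separate observations. Sharing between blocks was not examined, so the blocks may not be separate observations either. At the same time hrde-1 was above WT in 18 and set-32 was above WT in 18. As deposited, the 2 libraries without MET-2 and SET-25 were thus the lowest in these windows. When the libraries were rescaled to windows in no list, the double mutant was still below WT and below hrde-1 in all 19 and the triple mutant below set-32 in all 19, but the triple mutant was above WT in 11 and below it in 8.

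The differences within each library set were seen in every block. At X 3404001 to 3408000 the mean level was 520 RPKM for WT, 752 RPKM for set-32 and 636 RPKM for hrde-1, against 274 RPKM for the double mutant and 289 RPKM for the triple mutant. The ∆pre-mRNA [met-2 set-25/WT] was 0.528 (95% counting interval 0.485 to 0.574), and ∆pre-mRNA [triple/set-32], which shares no library with it, was 0.384 (0.343 to 0.431). All such intervals treat summed fractions as whole and separate reads, so they are rough guides to counting error only. X 3559001 to 3564000 had WT at 409 RPKM and the double mutant at 205 RPKM, and set-32 at 499 RPKM and the triple mutant at 215 RPKM. X 3568001 to 3572000, 4 kb further on, was close to it, with WT at 441 RPKM, set-32 at 554 RPKM, hrde-1 at 472 RPKM, the double mutant at 214 RPKM and the triple mutant at 235 RPKM. At X 5102001 to 5106000 the ∆pre-mRNA [met-2 set-25/WT] of 0.760 (0.717 to 0.807) was nearer to 1, and ∆pre-mRNA [triple/set-32] was 0.484 (0.447 to 0.522). The last block, X 7730001 to 7733000 with 2 of these windows, had 0.486 and 0.591. The triple mutant was at 0.524 to 0.796 of WT in the 5 blocks as deposited, and after rescaling at 1.45 (1.34 to 1.56) at X 5102001 to 5106000 and at 0.953 to 1.08 in the other 4. Rescaled ∆pre-mRNA [triple/set-32] was 0.468 to 0.720. These blocks held from 155 reads (triple mutant, last block) to 3511 reads (WT, X 5102001 to 5106000).

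**Figure D2:**
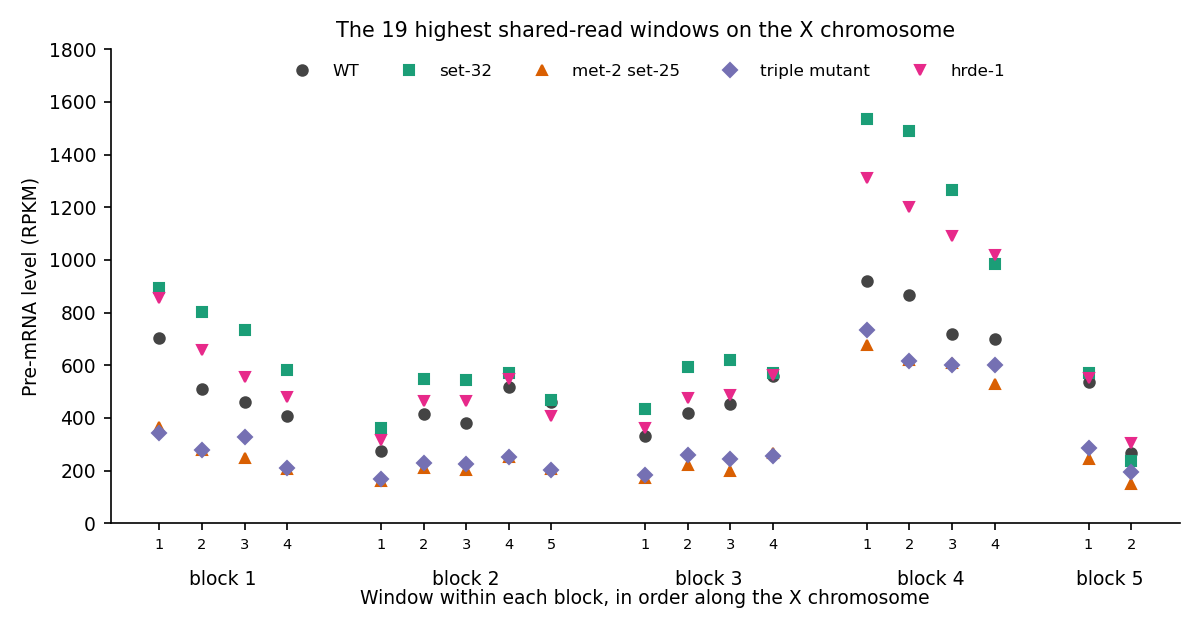
Pre-mRNA level in RPKM of the 19 shared-read windows on X with a mean of at least 200 RPKM, grouped in 5 blocks in order along the chromosome, with 1 point per library. Points of met-2 set-25 (the double mutant) and of the triple mutant lie below those of WT in every window as deposited (the triple mutant in 8 of 19 after rescaling), and those of set-32 and hrde-1 lie above WT in 18 of the 19 windows each.

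The longest run of shared-read windows went the other way. X 7349001 to 7362000, 13 kb with 10 windows of tier 3, was nearly silent in WT with a mean of 0.82 RPKM. The mean was 1.01 RPKM for set-32 and 2.12 RPKM for hrde-1, but 9.13 RPKM for the double mutant and 14.7 RPKM for the triple mutant. The level was higher in the double mutant than in WT in 13 of 13 windows, and higher in the triple mutant than in set-32 in 13 of 13. Windows of a run can hold parts of the same reads, so these 13 are not separate observations. Summed over the run, ∆pre-mRNA [met-2 set-25/WT] was 11.1 (5.84 to 21.7), from 79.5 and 11.7 reads, and ∆pre-mRNA [triple/set-32] was 14.5 (6.97 to 39.4), from 61.7 and 7.33 reads. The 9 inner windows, X 7352001 to 7361000, were even in level. Their fractions summed to 2.71 reads in WT and 3.73 reads in set-32, and the number of separate reads behind these sums is not known. WT spanned 0.16 to 0.43 RPKM and hrde-1 spanned 0.47 to 0.94 RPKM there, against 5.64 to 9.24 RPKM in the double mutant and 13.1 to 20.6 RPKM in the triple mutant. In hrde-1 the first pair of windows and the last window of the run stood above the inner ones, at 6.88, 6.78 and 5.32 RPKM. Over the run hrde-1 was above WT in 12 of 13 windows, with a ∆pre-mRNA [hrde-1/WT] of 2.59 (1.18 to 5.78). Most of these windows could not be called singly, because they did not reach 20 RPKM.

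A run on chromosome III with 7 of 9 windows in tier 3 moved with the X blocks. III 6565001 to 6574000 had means of 116 RPKM (WT), 119 RPKM (set-32) and 113 RPKM (hrde-1), against 13.4 RPKM for the double mutant and 32.7 RPKM for the triple mutant. The ∆pre-mRNA [met-2 set-25/WT] was 0.115 (0.0916 to 0.146) and ∆pre-mRNA [triple/set-32] was 0.273 (0.218 to 0.340). In contrast, the 5 kb run X 1136001 to 1141000 differed between the library sets as deposited. WT had 54.7 RPKM, hrde-1 had 68.4 RPKM and the double mutant had 49.9 RPKM there, but set-32 had 22.6 RPKM and the triple mutant had 24.7 RPKM. The ratios to WT of 0.414 and 0.451 became 0.604 (0.453 to 0.794) and 0.820 (0.574 to 1.14) after rescaling.

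**Figure D3:**
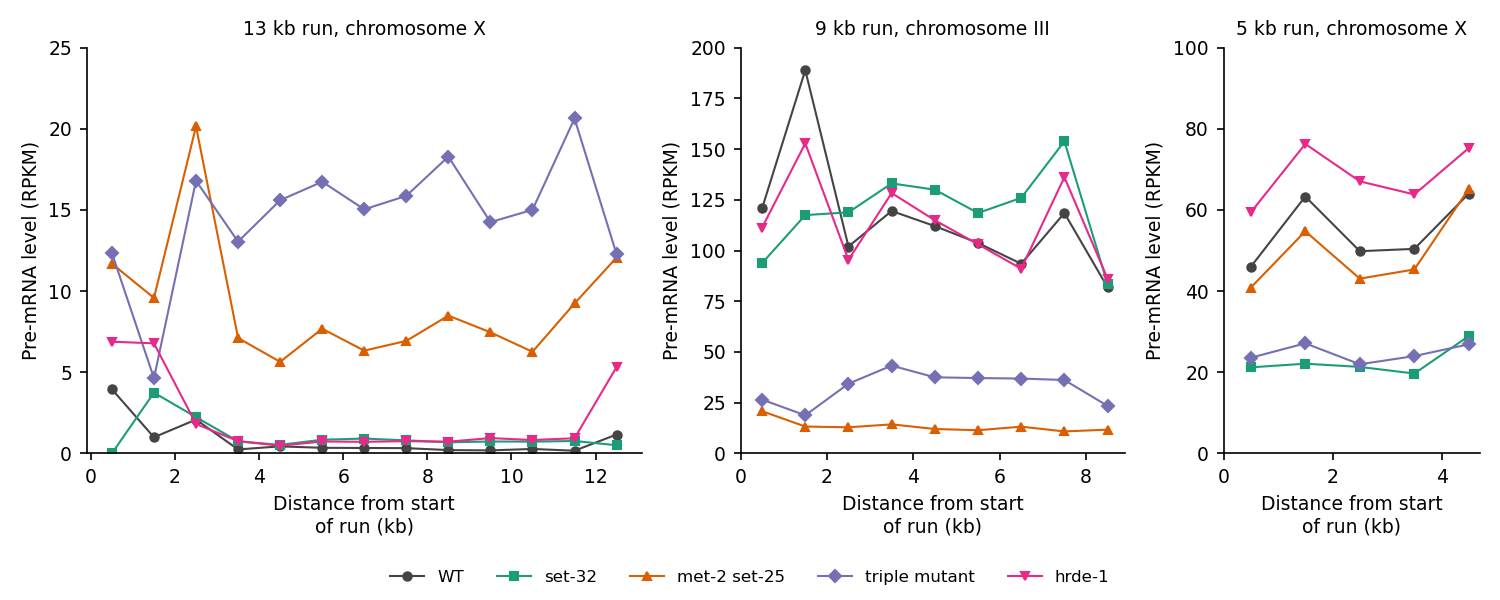
Pre-mRNA level in RPKM along 3 runs of adjacent shared-read windows, plotted by the distance of each window's centre from the start of the run, with 1 line per library and a separate vertical scale for each run. In the inner windows of the 13 kb run on X the triple mutant and the double mutant (met-2 set-25) lie above the other libraries, the 9 kb run on III is lowest in those mutants, and the 5 kb run on X, as deposited, is lowest in set-32 and the triple mutant.

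In a few runs the reads were shared within the run itself. Of 362 runs of at least 2 windows with at least 10 WT reads, 5 summed to whole reads in all 5 libraries within 0.05 read, although each of their windows held a fraction in WT. X 1136001 to 1141000 was the longest of them. Its windows held 50.42, 69.42, 54.65, 55.27 and 70.24 WT reads, which add up to 300 reads, and the other sums were 63 reads (set-32), 232 reads (hrde-1), 167 reads (double mutant) and 40 reads (triple mutant). The other 4 were pairs of windows, on chromosomes II (13635001), III (11704001) and IV (2995001 and 17470001). IV 17470001 to 17472000 had the highest level of these pairs, with WT at 63.4 RPKM and the double mutant at 111 RPKM. In the other 357 runs at least 1 library's sum was not whole, so that reads were also shared with places outside the run.

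Among other runs of at least 9 kb, 4 were below the level of 1 read per window in WT, as were several shorter runs. IV 688001 to 699000 had means of 0.58 RPKM in WT and 0.16 RPKM in set-32, which rested on 7.01 and 1.00 reads. III 7405001 to 7416000 had means of 0.51 RPKM (WT), 0.88 RPKM (set-32), 1.15 RPKM (hrde-1), 1.41 RPKM (double mutant) and 0.94 RPKM (triple mutant). III 7433001 to 7443000 had 0.44, 1.35, 1.10, 1.47 and 0.87 RPKM in the same order. Every mutant was thus above WT in these runs, and WT chose the windows. At III 7433001 to 7443000 the ∆pre-mRNA [met-2 set-25/WT] was 3.31 (1.02 to 12.2) and ∆pre-mRNA [set-32/WT] was 3.05 (0.909 to 12.2). After rescaling, the latter was 4.46 (1.33 to 17.9). I 1116001 to 1125000 had a WT mean of 0.84 RPKM. Some other runs of at least 5 kb had more reads. At III 13584001 to 13593000 the level was 6.29 RPKM for WT, 2.23 RPKM for set-32, 0.69 RPKM for hrde-1, 4.40 RPKM for the double mutant and 1.22 RPKM for the triple mutant. Its ∆pre-mRNA [hrde-1/WT] was 0.110 (0.0275 to 0.281), and the next run, III 13594001 to 13600000, had WT at 6.27 RPKM and hrde-1 at 1.46 RPKM.

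Over all shared-read windows, the median ratio of hrde-1 to WT was near 1. The median ∆pre-mRNA [hrde-1/WT], after 1 RPKM was added to each value, was 0.963, with quartiles of 0.694 and 1.33. A window was called when this ratio was at least 2 in either direction and at least 1 of the values reached 20 RPKM. Among 528 windows with such a value, 41 were called higher in hrde-1 (7.77%, where the background over all windows was 4.80%) and 37 were called lower (7.01%, background 7.08%). The whole-read windows of the same tiers had 8.10% higher and 11.3% lower, so the share called higher was not particular to the shared-read windows. Because WT chose the windows, these counts and all others against WT are descriptions. Of the 41 higher windows, 11 lay within 2 kb of a GRTS or GRH window, as did 2 of the 37 lower ones.

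The 3 largest hrde-1 ratios were at windows within 2 kb of a GRTS or GRH window. III 7673001 to 7674000 had hrde-1 at 58.8 RPKM, WT at 6.27 RPKM, set-32 at 9.36 RPKM, the double mutant at 8.50 RPKM and the triple mutant at 3.49 RPKM. V 5481001 to 5482000 had hrde-1 at 61.9 RPKM and WT at 7.75 RPKM, a ∆pre-mRNA [hrde-1/WT] of 7.99 (3.93 to 20.9), while set-32 and the double mutant had 13.5 and 13.4 RPKM and the triple mutant had no read. Neighbours of both were also called higher: III 7675001 (2.63 after adding 1 RPKM), III 7678001 (3.69) and V 5480001 (2.47). III 3444001 to 3445000 had hrde-1 at 25.8 RPKM and no other library above 2.58 RPKM. The double and the triple mutant were both at 0 at III 3444001. In the windows III 7673001, V 5481001 and III 3444001 hrde-1 was the only library above 20 RPKM. Next came IV 13635001 (5.88 after adding 1 RPKM) and III 1322001 (5.69). IV 11830001 to 11831000 was named for its ratio of hrde-1 to the double mutant, with hrde-1 at 34.6 RPKM, WT at 10.5 RPKM, set-32 at 3.59 RPKM and no read in the double or the triple mutant.

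In the double mutant more shared-read windows were called lower than higher. Of 527 windows, 41 were called higher than WT (7.78%, background 7.29%) and 67 lower (12.7%, background 7.70%), and the median ∆pre-mRNA [met-2 set-25/WT] was 1.02. The whole-read windows of the same tiers went the other way, with 11.7% higher and 9.41% lower. The high X windows supplied 5 of the 67 and the chromosome III run supplied 9. The smallest ratio was in the chromosome III run, at III 6566001 (0.0748 after adding 1 RPKM), where WT had 189 RPKM and the double mutant 13.2 RPKM. Next was II 10933001 to 10934000 (0.0832), where the double mutant had 11.2 RPKM and the other libraries had 145 RPKM (WT), 148 RPKM (triple mutant), 312 RPKM (set-32) and 334 RPKM (hrde-1). IV 3879001 to 3880000 had WT at 33.6 RPKM and the double mutant at 2.36 RPKM. In the other direction, I 14370001 to 14371000 had the double mutant at 149 RPKM and the triple mutant at 74.9 RPKM, with WT at 33.0 RPKM, set-32 at 35.2 RPKM and hrde-1 at 12.1 RPKM. V 19200001 to 19201000 had 27.6 RPKM in the double mutant and at most 5.69 RPKM in the other libraries.

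In set-32 and the triple mutant the direction of most calls turned with the scaling. Of 488 windows, 34 were called higher than WT in set-32 (6.97%, background 2.83%) and 116 lower (23.8%, background 30.0%), but after rescaling to windows in no list 131 of 588 were higher (22.3%, background 10.4%) and 42 lower (7.14%, background 9.26%). Of 515 windows, 58 were called higher than WT in the triple mutant (11.3%, background 4.73%) and 211 lower (41.0%, background 56.0%), but after rescaling 211 of 664 were higher (31.8%, background 20.1%) and 85 lower (12.8%, background 18.8%). The whole-read windows had 18.5% and 32.5% higher in the same rescaled comparisons. The median ratios were 0.835 and 0.769 as deposited and 1.02 and 1.01 rescaled.

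A group of windows stood far above WT in both libraries of the second set. I 12286001 to 12287000 and I 12324001 to 12325000 had WT at 51.2 and 52.1 RPKM, the double mutant at 57.1 and 56.2 RPKM and hrde-1 at 70.8 and 70.7 RPKM. The same windows had 221 and 223 RPKM in set-32 and 235 and 235 RPKM in the triple mutant, and the ∆pre-mRNA [set-32/WT] was 4.32 (3.13 to 6.05) at the former. The values of this pair were close in every library. They can hold many of the same reads, so they may not be separate observations. V 14277001 to 14278000 had WT at 117 RPKM, set-32 at 422 RPKM and the triple mutant at 423 RPKM, and I 11649001 to 11650000 had 153, 369 and 441 RPKM in the same order. III 1122001 to 1123000 had WT at 35.4 RPKM, set-32 at 110 RPKM and the triple mutant at 309 RPKM. For these windows the set-32 mutation and the library set cannot be told apart, and the rRNA share of those libraries was high as given above.

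A stretch of chromosome I was higher in set-32 than in the other libraries. At I 4342001 to 4358000, 8 shared-read windows lay among windows marked misannotated. The 8 windows had a mean of 127 RPKM for WT, 233 RPKM for set-32, 164 RPKM for hrde-1, 125 RPKM for the double mutant and 139 RPKM for the triple mutant. The ∆pre-mRNA [set-32/WT] was 1.84 (1.69 to 2.003), and ∆pre-mRNA [triple/set-32] was 0.598 (0.528 to 0.674). The triple mutant was at 1.10 of WT as deposited, but at 2.00 (1.77 to 2.25) after rescaling, with ∆pre-mRNA [triple/set-32] at 0.728. I 14679001 to 14680000, a tier 3 window, had the largest ratio to WT in set-32, with set-32 at 31.0 RPKM, WT at 2.07 RPKM, hrde-1 at 0.37 RPKM, the double mutant at 4.25 RPKM and the triple mutant at 3.55 RPKM.

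Comparisons within a library set and without WT do not use the values by which the windows were chosen. In the triple mutant against set-32, 34 of 375 windows were called higher (9.07%, background 8.04%) and 95 lower (25.3%, background 27.1%), and after rescaling 99 of 430 were higher (23.0%, background 16.8%) and 65 lower (15.1%, background 16.1%). In hrde-1 against the double mutant, 90 of 512 windows were called higher (17.6%, background 6.99%) and 58 lower (11.3%, background 9.93%). The whole-read windows of the same tiers had 9.64% higher and 15.7% lower in that comparison, so the larger share was of higher windows among the shared-read windows and of lower windows among the whole-read windows. The high X windows supplied 13 of the 90 and the chromosome III run supplied 9, and without the high X windows the share was 15.6%. Windows within 2 kb of a GRTS or GRH window made up 13 of the 90 and 0 of the 58. After rescaling, 103 of 543 windows were higher in hrde-1 (19.0%, background 9.11%) and 45 lower (8.29%, background 7.96%). The rescaled shares of the whole-read windows were 11.0% higher and 13.2% lower. As deposited, the medians of these comparisons, in the order given, were 0.971 and 0.980, and those of the whole-read windows 1.00 and 0.992.

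**Figure D4:**
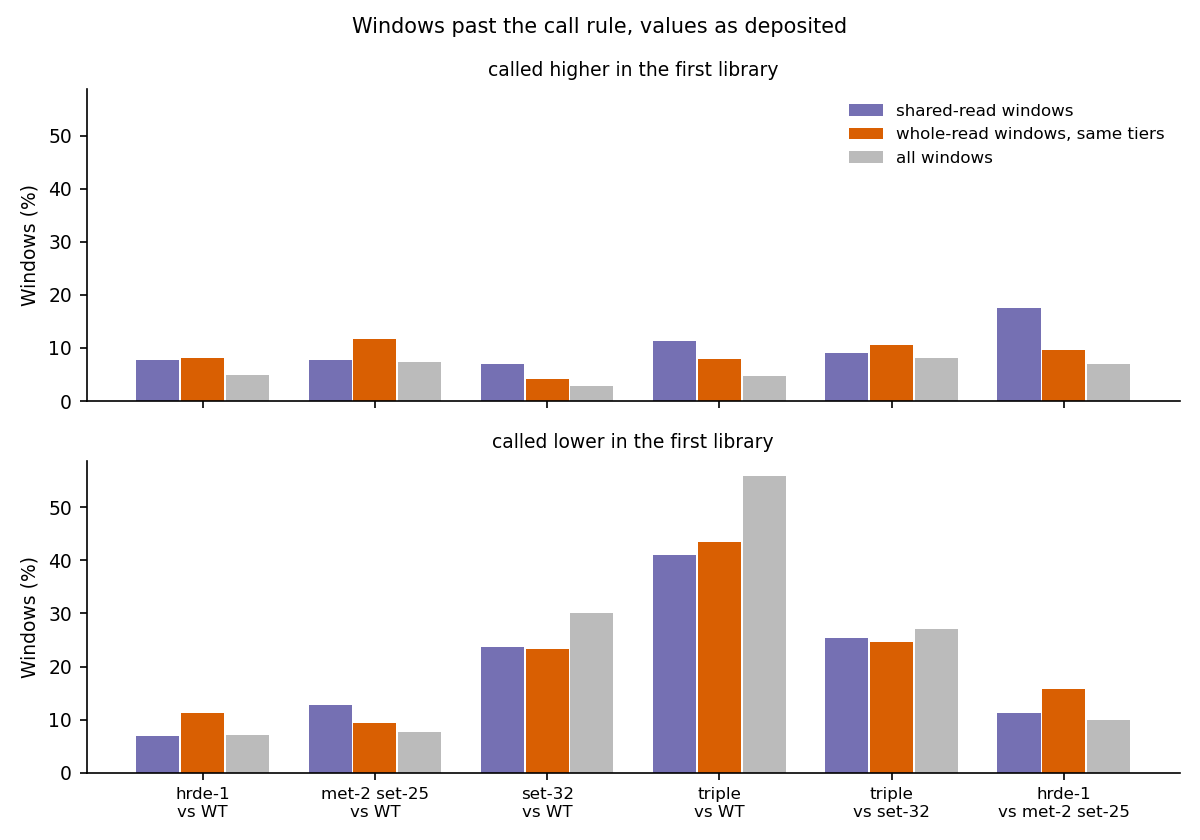
Percentage of windows called higher (top) or lower (bottom) in the first library of each of 6 comparisons, of windows whose larger value was at least 20 RPKM, as deposited, for shared-read windows, whole-read windows of the same tiers and all windows. In hrde-1 against met-2 set-25 (the double mutant) the shared-read windows reach 17.6% higher, and against WT the triple mutant has the tallest bars for lower windows in all 3 sets.

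The comparisons of the double mutant with WT and of the triple mutant with set-32 address the same loss of MET-2 and SET-25 in separate libraries. As deposited, 318 shared-read windows had at least 20 RPKM in both comparisons. Of these, 28 were called lower in both (8.81%), 6 were called higher in both (1.89%) and 4 were called in opposite directions (1.26%). For whole-read windows the shares were 3.53% lower in both, 3.39% higher in both and 0.706% opposite, and for all windows 3.10%, 1.50% and 0.522%. No joint count was made after rescaling. Rescaling to windows in no list changed the calls of the triple mutant against set-32 from 34 higher and 95 lower to 99 and 65, so the balance of the joint calls depends on the scaling. The 28 windows included the 9 of the chromosome III run and 5 of the high X windows, and without these sets 14 of 290 were lower in both (4.83%). The 6 windows higher in both were I 1015001 and I 1016001, which adjoin, I 14370001, IV 4769001, V 11174001 and X 12470001. IV 4769001 to 4770000 had the double mutant at 101 RPKM and the triple mutant at 72.6 RPKM, with WT at 29.6 RPKM, set-32 at 16.2 RPKM and hrde-1 at 14.0 RPKM. V 11174001 to 11175000 had 34.7 and 57.2 RPKM in the double and the triple mutant, against 11.3 RPKM in WT and 22.4 RPKM in set-32.

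**Figure D5:**
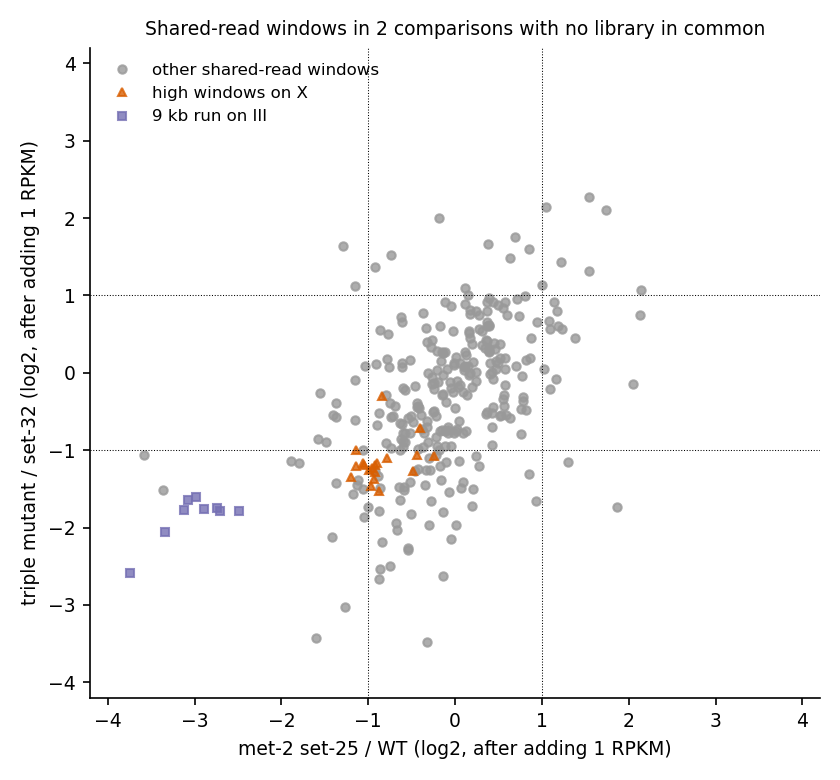
Log2 ratio of met-2 set-25 (the double mutant) to WT, horizontal, against log2 ratio of the triple mutant to set-32, vertical, each after adding 1 RPKM, for the 318 shared-read windows with at least 20 RPKM in both comparisons, with dotted lines at a 2-fold difference. The 9 windows of the chromosome III run lie apart at the lower left, the high X windows lie around the lower left crossing of the dotted lines, and 6 windows lie in the upper right. Values are as deposited.

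Windows that hold the same shared reads and no others have the same value in every library. Among windows that averaged at least 5 RPKM, 1 such pair with a chosen window was found. Windows that share only part of their reads differ in value and could not be found in this way. How many further places the reads of this pair matched was not examined. I 12142001 to 12143000 (tier 4) and X 16441001 to 16442000 (tier 7, not among the chosen windows) agreed within 0.015 RPKM in each library, with WT at 3.87 RPKM, set-32 at 8.72 RPKM, hrde-1 at 4.65 RPKM, the double mutant at 5.75 RPKM and the triple mutant at 21.2 RPKM. The windows of this pair belong to different tiers, and the reads do not show from which of the places they came.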

How the data were processed

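Reads were aligned by the authors to WS190 (ce6) with Bowtie 0.12.7 (perfect alignments only, and a read with N matching places counted 1/N at each), and the deposited values are RPKM per 1 kb window. A deposited score, the H3K9me3 tier (1 to 8), is not defined in the sources used here. Columns were matched to genotypes by library code. Windows marked misannotated were left out. The members, lists and rules were chosen with earlier results of these data known.

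The value of 1 read was recovered from the steps of each column, and a value was called whole within 0.02 read. Ratios of windows and their log2 were taken after adding 1 RPKM, and ratios of sums are without it, with exact Clopper-Pearson intervals (95%) on rounded reads. These intervals treat summed fractions as whole and separate reads, although a shared read adds only a fraction and can count in several windows. They are therefore rough guides to counting error alone, and reads copied in PCR are not separate molecules. A window was called at a ratio of at least 2 where the larger value reached 20 RPKM. Windows named were the 10 with the highest mean, up to 5 largest and 5 smallest called ratios per comparison, the 5 longest runs and equal groups. Other windows were chosen after their values were seen. No test was run, as each genotype had 1 library, and the calling step was tested on simulated data. Python 3.11.15, numpy 2.4.6, scipy 1.17.1 and pandas 2.3.3 were used.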

Additional observations from a re-analysis of the deposited data

Results flagged for a closer look

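As deposited, the double mutant over WT and the triple mutant over set-32 were called in opposite directions at 4 of 318 shared-read windows (1.26%, against 0.522% of all windows). The difference was not tested, since each genotype had 1 library. At III 11603001 to 11604000 the ratio after adding 1 RPKM was 0.410 for the double mutant over WT and 3.10 for the triple mutant over set-32. At III 11659001 to 11660000 the same ratios were 0.448 and 2.18. At IV 4996001 to 4997000 they were 3.63 and 0.300, and at IV 5998001 to 5999000 they were 2.47 and 0.450. In the first pair of windows WT was high (32.4 and 34.5 RPKM) and set-32 low (6.29 and 10.8 RPKM), and in the last pair WT was low (5.24 and 15.0 RPKM) and set-32 high (33.2 and 31.0 RPKM). These calls rest on few reads, and the counting interval of the triple mutant over set-32 included 1 at III 11603001 (0.765 to 14.0), III 11659001 (0.697 to 8.01) and IV 5998001 (0.0990 to 1.24), while at IV 4996001 it was 0.0514 to 0.922.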

How the results depend on the processing

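No paired analysis was possible because each genotype had 1 library, and for the same reason no replicate could be left out. Medians of ratios are given in the order hrde-1, set-32 and the triple mutant over WT, then the triple mutant over set-32. With a pseudocount of 0.1 RPKM they were 0.932, 0.732, 0.605 and 0.948. With 5 RPKM the first 3 were 0.988, 0.935 and 0.916, hrde-1 over the double mutant was 0.992, windows called higher were 27 in the double mutant over WT and 22 in the triple mutant over set-32. Where the pair of libraries averaged 5 RPKM or more the medians were 1.00 (reversed), 0.802, 0.715 and 0.898, and hrde-1 over the double mutant was 0.993. After rescaling to windows in no list the medians were 1.00, 1.02 and 1.01 (all reversed) over WT, and 1.00 both for the triple mutant over set-32 and for hrde-1 over the double mutant. Rescaled calls were 131 higher and 42 lower in set-32 over WT, 211 higher and 85 lower in the triple mutant over WT, and 99 higher in the triple mutant over set-32. The cause was not tested. A wider tolerance for whole reads (0.05 read, 4434 windows) and leaving out windows within 2 kb of GRTS or GRH kept all 18 values within the limits set, as did leaving out the high X windows or the chromosome III run, both chosen after seeing the data. Depth limits every window below 3 reads.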
